A study of Mus musculus with 6 samples.

Results

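The genes described here are 47 genes of DNA replication and entry into S phase, the part of the cell cycle in which the genome is copied. They were given as a list and taken by gene symbol, each through the brightest of its probe sets by mean log2 signal over all 6 arrays. Of the 47 genes, 46 had a probe set of that symbol alone in the platform annotation used here and all 46 were above the detection floor on at least 1 array, out of 15721 such genes in the series; Chaf1a was not analysed here. The series asks what loss of Furin, a protease of the secretory pathway, does to CD4 T cells. All mice were C57BL/6 of 10 to 11 weeks and carried the Fur flox/flox alleles; controls (called WT in the labels) had no Cre, and Furin cKO mice had CD4 cre, which is known to act from thymocyte development on and so in all CD4 T cells and, through a shared precursor, in CD8 T cells. Naive CD4+CD62L+CD44- cells were activated by 2 days of culture with plate-bound anti-CD3 and anti-CD28 (5 µg/ml of each antibody). Memory CD4+CD62L-CD44+ cells and regulatory CD4+CD25+FoxP3+ cells were not cultured. Each of the 6 combinations of population and genotype was measured on 1 Affymetrix array, so no group has a replicate and differences between genotypes within a population have no test. Values are MAS5 signals on a linear scale; the floor is a signal of 47.6, and a signal under it was raised to it before log2 was taken.

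The arrays differed in ways that run with the populations. Probe sets that reached the floor made up 49.4% to 49.8% of the activated arrays and 62.6% to 67.4% of the other 4, and the 3' to 5' ratio of actin probe sets, which reflects RNA quality, was 1.22 to 1.24 against 1.35 to 1.93. Within genotype pairs this ratio differed most in memory cells, at 1.93 (control) and 1.56 (Furin cKO), beside 1.35 and 1.36 in regulatory and 1.22 and 1.24 in activated cells. Culture, RNA quality and population cannot be told apart. Furin itself was read by 1 probe set of unstated position in the gene, so it is not known whether it reads the deleted part. The Furin signal was 3.40-fold higher on the memory array labelled Furin cKO (2203) than on its control (647). Furin values of the activated and regulatory pairs are not given here. Foxp3, the defining factor of regulatory T cells, read 50.4 and 33.8 on the arrays labelled regulatory, the first just above and the second below the floor, and 1358 and 1116 on those labelled memory, against the labels. It was the exception among 8 regulatory T cell markers, of which the other 7 read higher in regulatory than in memory cells in the fit (median of the 8 log2 1.11), such as Gpr83 at 2972 and 2707 against 688 and 434. Of 7 measured memory markers 5 read lower in regulatory cells (median -0.90). No marker of either list passed the test between these populations. Populations and genotypes are named by their labels throughout, and each direction rests on them.

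Replication starts when the origin recognition complex (Orc genes), Cdc6 and Cdt1 load the Mcm helicase onto DNA; Cdc45 and the GINS proteins then switch the helicase on, and primase and the polymerases copy each strand behind it. Most of these genes are known targets of E2F transcription factors, which the retinoblastoma family holds back in resting cells and which cyclin E with its kinase releases. A resting T cell keeps this set low and raises it within the first days after its receptor is engaged, before the first divisions.

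Because E2F sites are the sequence feature these genes are known for, their promoters are shown before their values. RefSeq promoter windows of the GRCm38.p6 build, from 250 bases before to 50 bases after a transcription start, were matched by symbol for 38 of the 46 genes (46 windows). They were searched on both strands for 4 spellings of the E2F site, TTTGGCGC, TTTCCCGC, TTTGCCGC and TTTCGCGC, and for the CCAAT box, CCAAT. An E2F word was found in 14 of the 46 windows (30.4%), in 14 genes, against 2.85% of the 21263 windows of protein-coding genes. The 14 genes were Orc1, Cdc6 and Cdt1 of origin licensing, Mcm3, Mcm5, Mcm6 and Mcm7 of the helicase, Pola1, Pold1 and Pole2 of the polymerases, Rfc3, Lig1, Uhrf1 and Dnmt1. Of the 29 windows of the mitosis genes that serve as a comparison further on, 2 (6.9%) held an E2F word. The words TTTGAA and TTCGAA, cores of the cell cycle homology region known from mitosis genes, showed the opposite split and were found in 23 of the 29 mitosis windows (79.3%) but in 8 of the 46 windows of the replication genes (17.4%), near the 17.6% of protein-coding windows. The CCAAT box was found in 56.5% of replication, 79.3% of mitosis and 38.2% of protein-coding windows. The median GC content was 61.3%, 59.0% and 56.3% in the same order, and a GC-rich window holds GC-rich words more often, so the shares are a description with no test.

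Shown first are the promoters of the genes with the largest differences between activated and memory cells; Ccne2, which also belongs there, is named only. They lie at chr11:98907901-98908200 on the plus strand (Cdc6), chr2:5012742-5013041 on the minus strand (Mcm10), chr7:102441445-102441744 on the plus strand (Rrm1), chr7:48881547-48881846 on the minus strand (E2f8) and chr7:38107441-38107740 on the minus strand (Ccne1). The helicase promoters of Mcm3 (chr1:20820263-20820562) and Mcm6 (chr1:128359656-128359955), both on the minus strand, were added after the matches were seen, because each holds more than 1 E2F word. Each is written 5′ to 3′ on the strand of its gene, with E2F words and CCAAT boxes of either strand in capitals.
Cdc6 promoter: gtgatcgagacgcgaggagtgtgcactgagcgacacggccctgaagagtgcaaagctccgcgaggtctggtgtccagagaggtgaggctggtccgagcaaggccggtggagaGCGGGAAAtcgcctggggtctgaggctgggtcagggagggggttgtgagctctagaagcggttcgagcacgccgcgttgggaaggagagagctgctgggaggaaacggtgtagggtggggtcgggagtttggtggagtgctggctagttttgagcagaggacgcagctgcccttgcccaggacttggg
Mcm10 promoter: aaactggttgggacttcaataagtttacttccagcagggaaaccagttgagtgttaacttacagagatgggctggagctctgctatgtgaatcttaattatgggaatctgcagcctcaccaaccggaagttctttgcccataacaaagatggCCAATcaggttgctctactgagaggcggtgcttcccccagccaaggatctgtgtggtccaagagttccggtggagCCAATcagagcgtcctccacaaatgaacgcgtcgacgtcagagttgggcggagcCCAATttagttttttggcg
Rrm1 promoter: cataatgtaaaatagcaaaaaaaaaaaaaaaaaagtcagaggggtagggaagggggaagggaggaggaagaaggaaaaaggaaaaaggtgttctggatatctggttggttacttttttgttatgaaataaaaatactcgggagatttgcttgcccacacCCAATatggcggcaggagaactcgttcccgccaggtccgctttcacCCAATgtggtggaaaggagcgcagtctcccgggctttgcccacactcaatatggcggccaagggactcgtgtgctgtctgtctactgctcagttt
E2f8 promoter: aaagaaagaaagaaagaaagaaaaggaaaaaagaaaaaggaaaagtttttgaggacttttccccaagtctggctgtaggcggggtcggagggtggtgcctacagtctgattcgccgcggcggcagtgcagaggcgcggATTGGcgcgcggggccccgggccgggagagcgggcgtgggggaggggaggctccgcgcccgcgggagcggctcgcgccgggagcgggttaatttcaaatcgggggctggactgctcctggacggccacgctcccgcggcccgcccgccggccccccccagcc
Ccne1 promoter: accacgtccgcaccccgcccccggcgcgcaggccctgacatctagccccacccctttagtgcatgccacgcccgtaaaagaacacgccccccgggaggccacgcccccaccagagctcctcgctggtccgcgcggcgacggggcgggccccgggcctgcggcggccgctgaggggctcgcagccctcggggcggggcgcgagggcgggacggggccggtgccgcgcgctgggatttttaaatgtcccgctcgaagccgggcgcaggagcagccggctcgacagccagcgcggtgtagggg
Mcm3 promoter: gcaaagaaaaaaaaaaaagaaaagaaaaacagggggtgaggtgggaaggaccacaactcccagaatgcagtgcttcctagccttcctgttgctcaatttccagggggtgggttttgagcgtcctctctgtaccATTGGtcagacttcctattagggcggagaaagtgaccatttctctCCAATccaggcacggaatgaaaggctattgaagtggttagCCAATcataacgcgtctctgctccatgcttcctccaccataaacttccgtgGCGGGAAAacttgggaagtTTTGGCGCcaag
Mcm6 promoter: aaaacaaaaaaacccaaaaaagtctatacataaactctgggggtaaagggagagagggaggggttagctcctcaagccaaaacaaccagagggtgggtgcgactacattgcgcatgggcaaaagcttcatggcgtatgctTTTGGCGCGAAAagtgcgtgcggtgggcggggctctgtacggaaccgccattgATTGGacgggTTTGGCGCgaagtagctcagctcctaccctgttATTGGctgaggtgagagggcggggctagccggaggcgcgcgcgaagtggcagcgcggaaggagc
Cdc6 has 1 E2F word, read as GCGGGAAA on the gene's strand, 138 bases before the start. Mcm3 has 2 E2F words just after the start beside 3 CCAAT boxes, and Mcm6 has 3 E2F words, of which the first pair lie on opposite strands and overlap, beside 2 CCAAT boxes. Mcm10 has 3 CCAAT boxes, Rrm1 has 2 and E2f8 has 1. None of these 3 windows nor that of Ccne1 holds a whole E2F word in the spellings searched. The Mcm10 window ends in TTTGGCG, all but the last letter of the searched word TTTGGCGC. A word across its edge would be missed, and Mcm10 counts below as without a word. Genes with and without an E2F word covered the same range of activation: the median log2 difference between activated and memory cells was 1.61 (0.09 to 3.71) for the 14 with a word and 1.89 (0.16 to 3.84) for the 24 without.

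Activated cells carried more transcript of nearly the whole replication set than memory or regulatory cells. In a limma model over all 6 arrays with population and genotype as terms, 37 of the 46 genes rose in activated over memory cells and 0 fell, against 17.4% of all genes tested that rose and 27.0% that fell. Over regulatory cells 44 of 46 rose and 0 fell, against 18.2% and 26.7% of all genes. The median log2 difference of the set was 1.86 over memory and 2.12 over regulatory cells, while the median of all genes was -0.21 and -0.22. At an unadjusted p below 0.05 the counts in either direction were 39 and 44, against 51.7% and 52.4% of all genes. Both activated arrays read above each of the other 4 in 43 of the 46 genes, a pattern shown by 22.5% of all genes, and the exceptions were Cdt1, Pcna and Rfc3. In bulk RNA, fewer cells in cycle and less transcript per cell cannot be told apart.

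**Figure D1:**
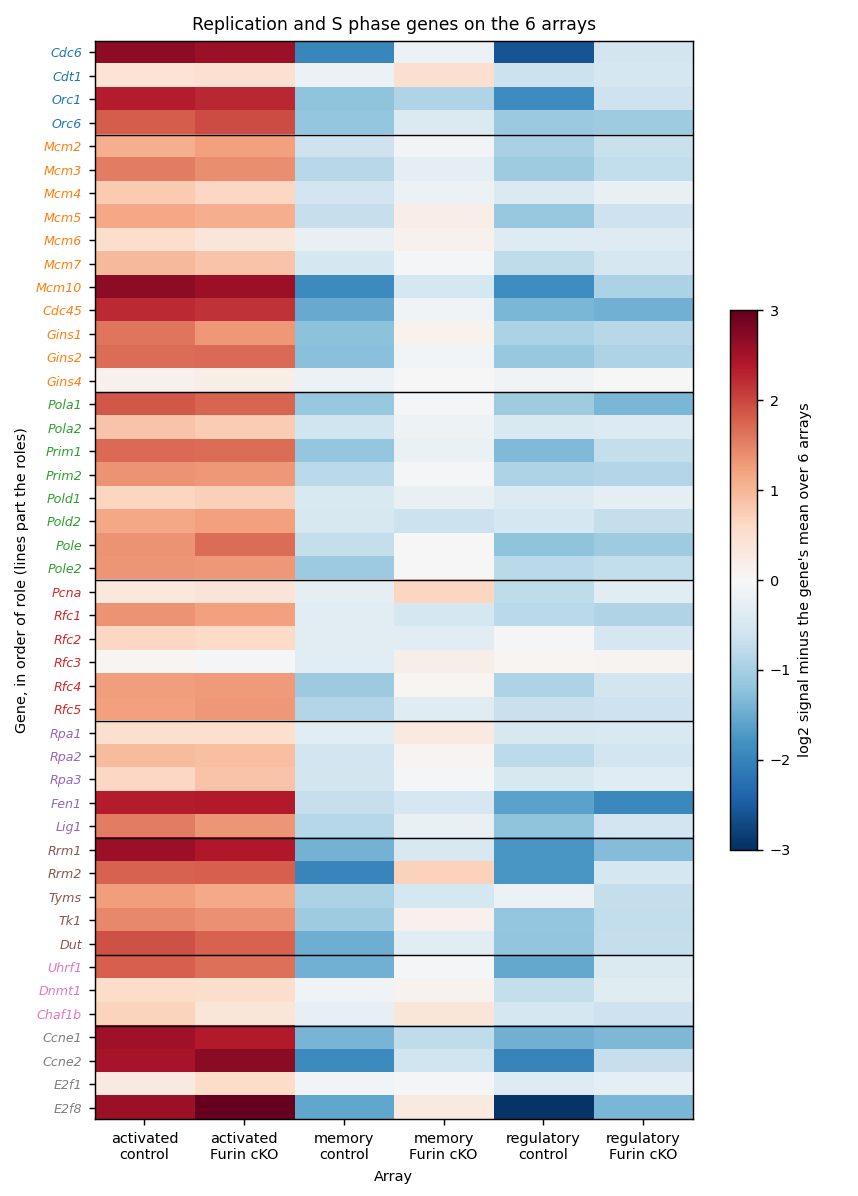
Log2 signal of the 46 genes (rows, in order of role, coloured by role) on the 6 arrays (columns), as the difference from each gene's mean over the 6 arrays; red is above and blue below that mean, and the colour scale ends at 3 on either side. The 2 activated columns are red for most genes, Gins4 and Rfc3 are pale throughout, and the memory Furin cKO column is less blue than the memory control column.

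The p-values rest on how far the differences among all 3 populations varied between the genotypes, and not on a spread between animals. There were 2 arrays per population and 2 residual degrees of freedom. The variance of each gene was also moderated towards that of the other genes, with 2.2 prior degrees of freedom. The counts need all arrays: leaving out any 1 array lowered the calls in both contrasts, among the 46 and among all genes. For the 46 the loss was largest without a regulatory array. Such a fit leaves a population with 1 array, so only sizes are given. The median log2 difference of the 46 over memory cells was then 1.39 to 2.15, against 1.86 on all arrays. Over regulatory cells the median was then 1.87 to 2.38, against 2.12 on all arrays. Of the 37 and 44 calls, 32 and 35 held in all 9 settings of scaling, floor and probe set. Over memory cells 4 genes outside the 37 passed in some setting, against 0 over regulatory cells outside the 44. They were Dnmt1 and E2f1 in 4 of the 9 settings, Rpa1 in 2 and Pcna in 1. Lost in at least 1 setting were Mcm5, Rpa2, Rrm2, Tyms and Dut over memory cells and Mcm6, Pola2, Pcna, Rpa1, Rpa2, Tyms, Dut, Chaf1b and E2f1 over regulatory cells; Rrm2 over memory cells, for example, was lost with a floor at the 20th percentile (adjusted p = 0.071). The mean of all probe sets gave smaller sizes, such as log2 1.28 and 0.86 for Mcm10, 1.72 and 2.48 for E2f8, 1.99 and 2.99 for Fen1, 2.55 and 2.93 for Ccne1, 1.75 and 1.82 for Cdc45 and 2.26 and 2.38 for Rrm1, all still past the threshold. Among the calls that the mean of all probe sets ended were those of Dut (1.22 and 1.25, adjusted p = 0.16 and 0.14) and Tyms (0.47 and 0.28, adjusted p = 0.062 and 0.19) and that of Chaf1b over regulatory cells (0.03). The smallest difference over the 9 settings was 1.19 and 1.46 for Pola1, 1.11 and 1.34 for Gins1 and 2.08 and 2.59 for Orc1, which passed in all 9. Within the control arrays alone the median log2 difference was 2.17 over memory and 2.22 over regulatory cells, and within the Furin cKO arrays alone 1.34 and 2.0.

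The genes that license origins were among the steepest. Cdc6, the loader of the helicase, read 4770.5 (control) and 4499 (Furin cKO) in activated cells, 192 and 653 in memory cells, and 124 and 503 in regulatory cells; signals below are given in this order. It rose 13.1-fold over memory (log2 3.71 ± 0.58 SE, limma adjusted p = 0.01) and 18.6-fold over regulatory cells (4.21 ± 0.58, adjusted p = 0.0077). Orc1, the subunit of the recognition complex whose level varies most through the cycle, read 905 and 842 in activated, 76.5 and 94.6 in memory, and 40.3 and 114 in regulatory cells. The regulatory control array was below the floor, the only such value of any of the 46 genes. Orc1 rose 10.3-fold over memory cells (adjusted p = 0.0044) and passed the test over regulatory cells (adjusted p = 0.0041), where its fitted size depends on the floor. Orc6 rose 6.40-fold and 7.84-fold. Cdt1, which works with Cdc6, rose 2.02-fold over regulatory cells (adjusted p = 0.021) but not over memory cells (log2 0.28 ± 0.21, adjusted p = 0.36); its memory Furin cKO array read 6464, above both activated arrays (6155 and 6324).

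The helicase and its activators were less even. Mcm10, which helps to switch the loaded helicase on, read 3274 and 3051 in activated cells, 137 and 356 in memory cells, and 140.0 and 265 in regulatory cells. That is 14.3-fold over memory (log2 3.84 ± 0.39, adjusted p = 0.0039) and 16.4-fold over regulatory cells (4.04 ± 0.39, adjusted p = 0.0037). Cdc45, part of the working helicase, read 2253 and 2166 in activated, 168 and 448 in memory, and 186 and 176 in regulatory cells, and rose 8.06-fold and 12.2-fold (adjusted p = 0.0086 and 0.0058). On their chosen probe sets the ring subunits Mcm2, Mcm3, Mcm4, Mcm5 and Mcm7 rose by less. The rises ran from 2.11-fold for Mcm4 to 4.10-fold for Mcm3 over memory and from 2.05-fold to 5.17-fold over regulatory cells. These sizes depend on the probe set. The other Mcm4 probe set gave log2 2.1 in both contrasts. Further Mcm3 probe sets ran from log2 -0.61, on a dim one, to 3.05 over memory and 2.95 over regulatory cells. Mcm6 was 1.40-fold higher over memory cells without passing (adjusted p = 0.10) and rose 1.77-fold over regulatory cells (adjusted p = 0.027). Among the GINS genes, Gins1 and Gins2 rose 4.04-fold and 5.12-fold over memory cells, whereas Gins4 read 1459 to 1860 on all 6 arrays and passed in neither contrast (log2 0.24 ± 0.13 and 0.22 ± 0.13, adjusted p = 0.23 and 0.27).

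All 8 polymerase and primase genes rose in both contrasts, with median log2 differences of 1.80 and 2.15. Pola1, the catalytic subunit of the polymerase that lays down the primer with primase, read 2657 and 2427 in activated, 332 and 710 in memory, and 346 and 280 in regulatory cells. It rose 5.23-fold and 8.16-fold (adjusted p = 0.012 and 0.0068). Prim1, the catalytic primase subunit, read 8330.5 and 8129 in activated, 1146 and 2228 in memory, and 1020.0 and 1554 in regulatory cells, and rose 5.15-fold and 6.54-fold (adjusted p = 0.0053 and 0.0042). The leading-strand polymerase gene Pole rose 3.69-fold and 6.28-fold. Pold1, the catalytic subunit on the lagging strand, had the smallest rise of the group over both memory (2.02-fold) and regulatory cells (2.03-fold).

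The clamp and its loader held the genes with the smallest differences over memory cells, Rfc3 and Pcna. Rfc1, the large loader subunit, read 3376 and 3066 in activated, 1042 and 913 in memory, and 747 and 707 in regulatory cells, and rose 3.30-fold and 4.43-fold (adjusted p = 0.0024 and 0.0022). Rfc4 read 2346 and 2368 in activated, 461 and 1019 in memory, and 518 and 672 in regulatory cells, and rose 3.44-fold and 3.99-fold (adjusted p = 0.014 and 0.01). Pcna, the sliding clamp that tethers the polymerases, read 20736 and 21711 in activated cells against 13888 and 25967 in memory cells, so the groups overlapped (log2 0.16 ± 0.24, adjusted p = 0.67). Over regulatory cells (9900 and 13518) it rose 1.83-fold (adjusted p = 0.047). With quantile normalization the difference over memory cells was log2 1.28 (adjusted p = 0.01), while a floor at the 20th percentile ended the call over regulatory cells (adjusted p = 0.082). Rfc3 read 475 to 675 on all 6 arrays and passed in neither contrast (log2 0.09 ± 0.20 and -0.05 ± 0.20, adjusted p = 0.79 and 0.90). Its second probe set did separate the populations, with 850 and 909 in activated against 301 to 532 on the other arrays, so the flat reading belongs to the brighter probe set and not to every one of the gene.

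Of the genes that protect and join the new strands, Fen1, the nuclease that trims Okazaki fragments, read 12760 and 12855 in activated, 1535 and 1737 in memory, and 816 and 648 in regulatory cells. It rose 7.84-fold over memory (log2 2.97 ± 0.18, adjusted p = 0.0021) and 17.6-fold over regulatory cells (4.14 ± 0.18, adjusted p = 0.002). This too is an _x_at probe set, and the other one gave log2 1.01 and 1.85 (adjusted p = 0.014 and 0.0038). Lig1, the ligase that seals them, read 5612 and 4827 in activated, 1080 and 1670.0 in memory, and 839 and 1307 in regulatory cells, and rose 3.88-fold and 4.97-fold (adjusted p = 0.0078 and 0.0055). Of the single-strand binding proteins, Rpa2 and Rpa3 rose in both contrasts (2.24-fold and 2.06-fold over memory). The other Rpa2 probe set did not show the rise, with 996 and 830 in activated, 764 and 1354 in memory, and 933 and 978 in regulatory cells. Rpa1 rose 1.93-fold over regulatory cells (adjusted p = 0.026) and was 1.43-fold higher over memory cells without passing (adjusted p = 0.13).

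All 5 genes of nucleotide supply rose in both contrasts. Rrm1, the large subunit of ribonucleotide reductase, which makes deoxynucleotides, read 14177 and 12659 in activated, 900.2 and 1724 in memory, and 720.0 and 977 in regulatory cells, and rose 10.8-fold and 16-fold (adjusted p = 0.0029 and 0.0026). Rrm2, its S phase partner, read 13866 and 13965 in activated, 1029 and 6528 in memory, and 1204 and 2794 in regulatory cells. Its memory arrays were far apart and its SE was the widest of the set: 5.37-fold over memory (log2 2.42 ± 0.66, adjusted p = 0.046) and 7.58-fold over regulatory cells (2.92 ± 0.66, adjusted p = 0.028). Dut, which clears dUTP, rose 6.62-fold and 6.90-fold. The salvage kinase Tk1 rose 3.69-fold and 5.17-fold, and Tyms, which makes thymidylate and was dim here (83.7 to 384), rose 3.82-fold and 3.12-fold.

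Behind the fork, Uhrf1, which guides maintenance methylation to new DNA, read 5054 and 4582 in activated, 537 and 1424 in memory, and 507 and 1082 in regulatory cells, and rose 5.50-fold and 6.5-fold (adjusted p = 0.013 and 0.011). Dnmt1, the maintenance methyltransferase, rose 2.11-fold over regulatory cells (adjusted p = 0.0099) and was 1.45-fold higher over memory cells without passing (adjusted p = 0.061). Chaf1b, of the chromatin assembly factor, read 938 and 761 in activated, 495 and 760.0 in memory, and 407 and 384 in regulatory cells, which was a rise of 2.14-fold over regulatory cells (adjusted p = 0.034) and no call over memory cells (adjusted p = 0.25).

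The regulators of S phase entry had the largest median differences of the role groups, 3.49 and 3.90. Ccne2, an E-type cyclin, read 2450 and 2895 in activated, 118 and 293 in memory, and 110 and 272 in regulatory cells, and rose 14.4-fold and 15.4-fold (log2 3.84 ± 0.33 and 3.94 ± 0.33, adjusted p = 0.0028 and 0.0029). Ccne1, the other E-type cyclin, rose 11.6-fold and 14.5-fold (log2 3.54 and 3.86) on its brightest probe set, of the _x_at kind that can bind related transcripts, and by log2 1.55 and 1.99 on its other one (adjusted p = 0.029 and 0.015). E2f8, an E2F that is known to repress E2F targets late in S phase, read 2568 and 3486 in activated, 145 and 521 in memory, and 56.4 and 165 in regulatory cells. Its rise of 31-fold over regulatory cells (4.95 ± 0.38, adjusted p = 0.0027) was the largest of the 46 genes in that contrast, beside 10.9-fold over memory cells (3.44 ± 0.38, adjusted p = 0.0047). The size over regulatory cells depends on the floor, near which the 56.4 lies, and on the probe set. It was log2 4.27 with a floor at the 60th percentile. With the mean of all probe sets it was 2.48, below Fen1 at 2.99. E2f1 was 1.40-fold higher over memory cells without passing (adjusted p = 0.061) and rose 1.68-fold over regulatory cells (adjusted p = 0.019).

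**Figure D2:**
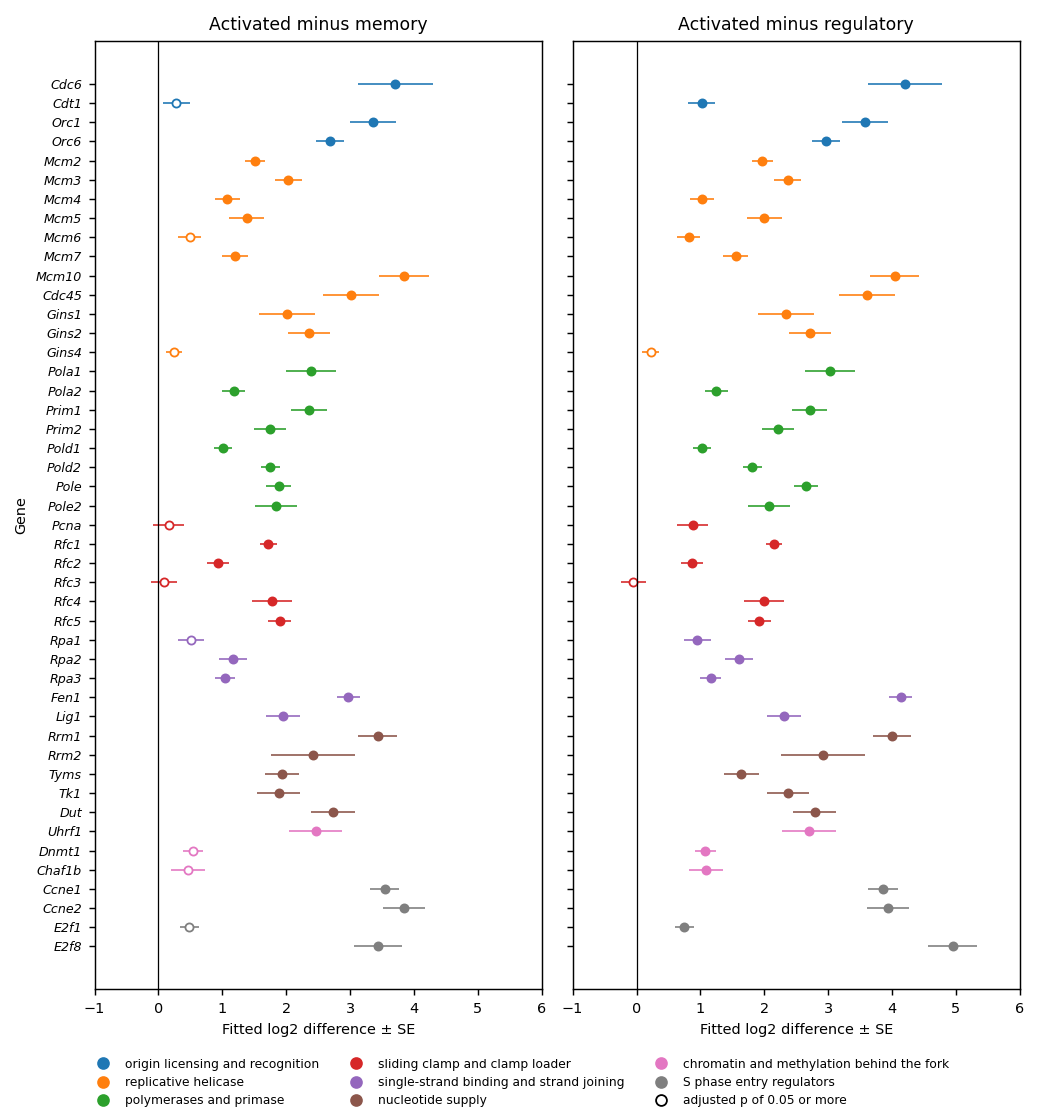
Fitted log2 difference with its SE for each of the 46 genes (rows, coloured by role), activated minus memory on the left and activated minus regulatory on the right; filled points have a limma adjusted p below 0.05 and open points do not. The left panel has 9 open points and the right panel 2 (Gins4 and Rfc3), and no filled point lies below 0.

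Memory and regulatory cells were not separated by the test. Of the 46 genes limma called 0 in either direction, with 8 at an unadjusted p below 0.05, as it called 0 of all genes, of which 21.4% had an unadjusted p below 0.05. The fitted log2 difference, regulatory minus memory, was negative for 41 genes with a median of -0.34. Among all 15721 genes it was negative for 8078, with a median of -0.01. The lean of the 46 was larger on the Furin cKO arrays. The regulatory array was below the memory array in 45 of 46 genes in Furin cKO cells and in 27 of 46 in control cells. The share of all genes was not counted for this. The medians were -0.52 and -0.10, beside 0.00 for all genes in each genotype. Without the memory Furin cKO array the fitted median of the 46 was 0.00.

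Between genotypes, the replication set read higher on the Furin cKO array in memory cells, less so in regulatory cells, and not in activated cells. In memory cells 43 of 46 genes were higher (49.2% of all genes) and 14 were at least 2-fold higher (5.51% of all genes), with a median log2 fold of 0.64 against -0.01 for all genes. In regulatory cells 37 were higher (47.9% of all genes) and 6 at least 2-fold (3.05%), with a median of 0.14 against -0.02. In activated cells 18 were higher (48.9%), 28 were lower, 0 reached 2-fold (0.362%) and the median was -0.05 against 0.00. None of the 46 was at least 2-fold lower in activated, memory or regulatory cells, against 0.353%, 3.56% and 2.06% of all genes. These are differences between 2 arrays with no replicate and no test. The memory pair is also the one whose actin 3' to 5' ratios differ (1.93 and 1.56), and the part of RNA quality in the fold was not tested. Over the 3 populations together limma called 0 of the 46 for genotype, with 2 at an unadjusted p below 0.05, and 0 of all genes (2.83% unadjusted). Of the 46 genes 41 leaned to the Furin cKO side, against 7702 of all 15721 genes, whose median was -0.01. The median of the 46 was 0.28. It was 0.09 without either memory array and 0.41 without either activated array.

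**Figure D3:**
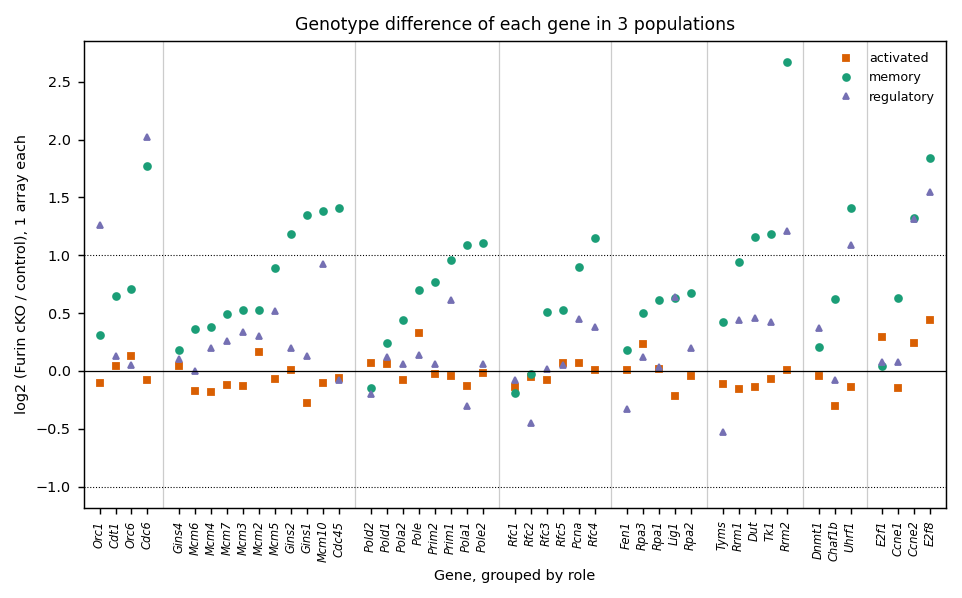
Log2 ratio of the Furin cKO array over the control array for each of the 46 genes (horizontal axis, grouped by role and ordered by the memory value) in activated (squares), memory (circles) and regulatory cells (triangles), with dotted lines at 2-fold. The circles lie above 0 for 43 genes and above the upper dotted line for 14, the squares stay between -0.30 and 0.44, and the triangles reach 2.02.

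The 14 genes at least 2-fold higher on the memory Furin cKO array were Cdc6, Mcm10, Cdc45, Gins1, Gins2, Pola1, Pole2, Rfc4, Rrm2, Tk1, Dut, Uhrf1, Ccne2 and E2f8, so every role group but that of single-strand binding and joining had at least 1. The largest was Rrm2 at 6.35-fold, and its other probe sets read 352 against 2676 and 361 against 2305, higher on the Furin cKO array as well. E2f8 followed at 3.58-fold, Cdc6 at 3.40-fold, Cdc45 at 2.67-fold, Uhrf1 at 2.65-fold and Mcm10 at 2.60-fold. Pcna was 1.87-fold and Rrm1 1.92-fold higher. Nucleotide supply had the highest median of the groups, log2 1.16, followed by the S phase entry regulators at 0.97, and the clamp and its loader had the lowest at 0.52. The genes lower on the memory Furin cKO array were Rfc1, Pold2 and Rfc2, with log2 folds of -0.19, -0.15 and -0.03.

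In regulatory cells Cdc6 had the largest difference, from 124 in the control to 503 (4.07-fold). E2f8 was 2.93-fold, Ccne2 2.48-fold, Rrm2 2.32-fold and Uhrf1 2.13-fold higher. The E2f8 fold rests on a control signal of 56.4, near the floor. It ran from log2 0.19 to 1.61 over the settings of scaling, floor and probe set. The lowest values over these settings were 0.91 for Ccne2, 0.85 for Uhrf1, 1.09 for Rrm2 and 1.80 for Cdc6. Orc1 was at least 2.39-fold higher on its chosen probe set, since its control array was below the floor. The other Orc1 probe set read 50.5 (control) and 36.2 (Furin cKO), close to the floor, and did not repeat the rise. Of these 6 genes, 5 (83.3%) were also among the 14 of memory cells, which is 35.7% of the 14; at least 2-fold higher in both populations were 0.678% of all genes. Outside licensing and the entry regulators, whose medians were log2 0.69 and 0.70, the regulatory medians were 0.44 for nucleotide supply, 0.37 behind the fork, 0.20 for the helicase, 0.12 for single-strand binding and joining, 0.06 for the polymerases and 0.04 for the clamp and loader. Cdc45 (186 and 176), Pola1 (346 and 280) and Fen1 (816 and 648, but 700 and 874 on its second probe set) read lower on the regulatory Furin cKO array, and Tyms had the largest difference downward (142 and 98.4, log2 -0.53). The fold was larger in memory than in regulatory cells for 40 of the 46 genes, and the share of all genes was not counted for this.

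Across the 46 genes the memory and regulatory folds, which share no array, correlated with Pearson's r of 0.64 and Spearman's rho of 0.55, against 0.11 and 0.10 over 13118 genes. For the memory and activated folds the values were 0.04 and -0.03. The memory fold also followed how strongly a gene differed between the activated and regulatory control arrays (0.62 and 0.65; 0.14 and 0.13 over 14200 genes), and the regulatory fold followed the difference between the activated and memory control arrays (0.58 and 0.44; 0.07 and 0.06 over 14530 genes), pairs that again share no array. Genes measured on the same arrays are not independent, so these values are descriptions. On the memory Furin cKO array 3 genes, Pcna, Cdt1 and Rfc3 (25967, 6464 and 675), exceeded both activated arrays.

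**Figure D4:**
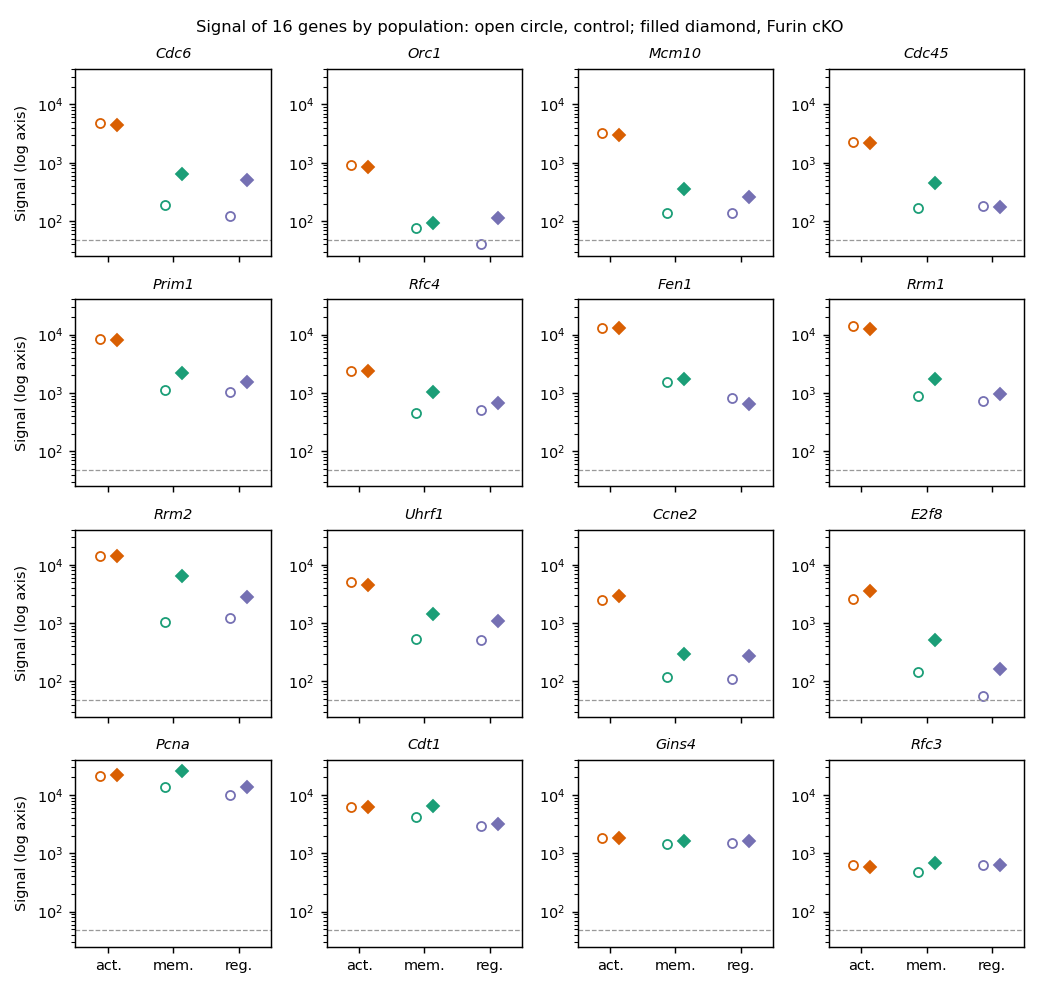
Signals (log axis) of 16 genes in activated (act.), memory (mem.) and regulatory cells (reg.), with an open circle for the control and a filled diamond for the Furin cKO array; the dashed line is the floor of 47.6. Most diamonds of memory cells lie above their circles, the paired marks of activated cells nearly coincide, and Pcna, Cdt1, Gins4 and Rfc3 in the last row show little separation of the populations.

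Genes of other steps of the cell cycle were read in the same way from lists chosen with earlier results of these data known. Their counts stand beside 17.4% of all genes that rose and 27.0% that fell over memory cells, and 18.2% and 26.7% over regulatory cells. Of 28 other replication factors, 20 rose and 2 fell in activated over memory cells and 21 rose and 2 fell over regulatory cells; Exo1, a nuclease of replication and repair, and Dna2, which processes Okazaki flaps with Fen1, rose by log2 4.17 ± 0.49 and 2.66 ± 0.28 over memory cells. The fallers, named after their values were seen, were Pold4 and Pole4, both small polymerase subunits, over memory cells, and Pold4 and Donson over regulatory cells. Their median genotype fold was log2 0.23 in memory cells, with Clspn, a checkpoint mediator at the fork, at 1.62, and 0.12 in regulatory cells. Of 18 other nucleotide supply genes, 14 rose and 3 fell over memory cells, and 13 and 3 over regulatory cells. Shmt1, of the folate cycle that feeds thymidylate synthesis, and Ctps, which makes CTP, rose by log2 4.04 ± 0.15 and 3.42 ± 0.16 over memory cells. The 3 of 18 that fell are a smaller share than among all genes; they were Tk2, Rrm2b and Ctps2 over memory and Tk2, Samhd1 and Ctps2 over regulatory cells, named after their values were seen. The mitochondrial kinase Tk2 read 272 and 245 in activated cells against 1172 to 1795 on the other 4 arrays and fell by 2.56 on the log2 scale over memory cells (adjusted p = 0.0021), while Rrm2b, the reductase subunit used outside S phase, fell by 0.61 (adjusted p = 0.035) and missed the threshold over regulatory cells (-0.50 ± 0.15, adjusted p = 0.059). The nucleotide genes had median genotype folds of log2 0.13 in memory and 0.05 in regulatory cells. The differences of both lists from the replication set (0.64 and 0.14) were not tested.

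Among 10 other genes of chromatin assembly, 7 rose over memory and 8 over regulatory cells and 0 fell. Hells, a remodeller that supports DNA methylation, rose by log2 3.30 ± 0.31 over memory cells, and the histone chaperone gene Asf1b was 2.86-fold higher on the memory Furin cKO array. Of 11 E2F and pocket protein genes, 4 (E2f3, E2f6, E2f7 and Tfdp1) rose and 1 (Rbl2) fell in each contrast. E2f3, an activator, rose by log2 2.31 ± 0.16 over memory cells, and Rbl2, the pocket protein of resting cells, read 578 and 527 in activated cells against 3540 to 5776 on the other arrays and fell by 3.03 (adjusted p = 0.0024). Of 14 kinase inhibitors and antiproliferative genes, 8 fell and 1 rose in each contrast. Cdkn1b, the inhibitor p27 of resting cells, fell by 2.63 over memory cells (adjusted p = 0.004), and Klf2, a factor of T cell quiescence, fell by 6.45. The riser was Cdkn1a, which encodes the inhibitor p21 and read 8879 and 8979 in activated cells against 65.4 to 326 on the other arrays (log2 6.42 ± 0.36 over memory cells, adjusted p = 0.002). Of the 10 cyclins, kinases and phosphatases, 6 rose and 3 fell over memory cells, and 5 rose and 1 fell over regulatory cells; the 3 fallers of 10 are near the share of all genes. They were the D-type cyclins, of which Ccnd1 alone fell over regulatory cells. Ccnd1 fell by 3.92 over memory cells, while Cdc25a, the phosphatase that frees the S phase kinase, rose by log2 2.37 ± 0.20.

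The 29 measured mitosis genes, which act after replication, moved further than the replication set in the genotype pairs. They rose over memory cells in 25 cases and over regulatory cells in 26, with medians of log2 2.70 and 3.18. On the memory Furin cKO array 28 of the 29 were at least 2-fold higher, with a median log2 fold of 1.90 against 0.64 for the replication genes, and on the regulatory array 12 were, with a median of 0.83 against 0.14. In activated cells the medians were 0.03 and -0.05. Mki67, the proliferation antigen, read 1260 and 5261 in memory cells, 1074 and 2396 in regulatory cells, and 9774 and 10102 in activated cells, control first. Birc5, the survivin gene of the chromosomal passenger complex, was 6.3-fold higher on the memory Furin cKO array (473 and 2981), above both activated arrays (2606 and 2558). The difference between both sets was not tested.

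**Figure D5:**
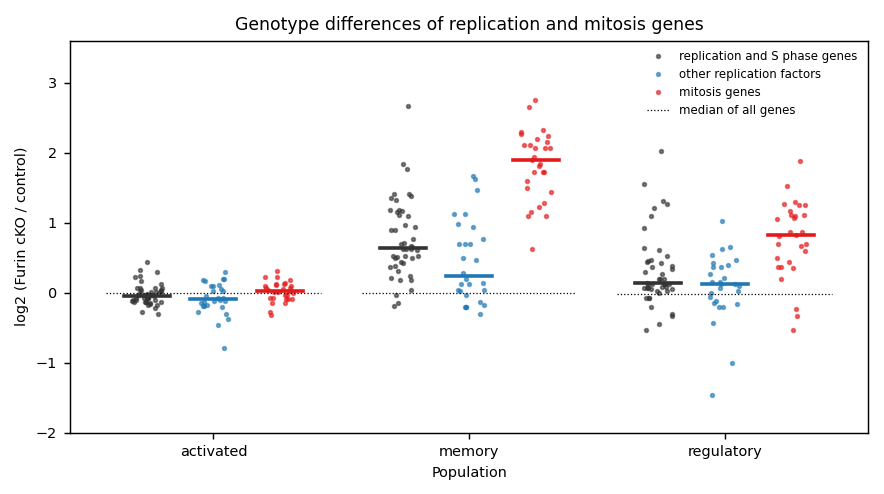
Log2 ratio of the Furin cKO array over the control array for each of the 46 replication and S phase genes (dark grey), 28 other replication factors (blue) and 29 mitosis genes (red) in the 3 populations; thick lines are medians of the lists and dotted lines the median of all genes. In memory cells the medians are 0.64, 0.23 and 1.90, in regulatory cells 0.14, 0.12 and 0.83, and in activated cells all lie between -0.09 and 0.03.

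Markers of other cells also differed between these arrays, in directions that varied from list to list. The summed signal of 7 granulocyte genes was 2058 on the memory control and 7940 on the memory Furin cKO array (5 and 6 of 7 above the floor), 1529 and 2920 on the regulatory arrays, and 73 and 55 on the activated arrays, with 0 of 7 above the floor. The sum of 7 plasma cell genes was 13474 and 20454 in memory and 21705 and 16750 in regulatory cells. The sum of 7 B cell genes was 15639 and 13240 in memory and 18636 and 16184 in regulatory cells, but the sum and the median differ in sign: in memory cells 4 of the 7 read higher on the Furin cKO array and 3 did so by 2-fold or more, and the median log2 fold was 0.69 beside 0.64 for the replication set, and in regulatory cells 5 of 7 read higher with a median of 0.23. The sum of 6 germinal centre B cell genes was 2430 and 2011 in memory cells and 2336 and 2849 in regulatory cells with Rgs13 below the floor on all 6 arrays, and that of 6 CD8 T and thymocyte genes 1485 and 877 and 1150 and 1007, with Rag1 and Rag2 below the floor throughout. Sums of 10 myeloid and dendritic (59975 and 32807), 5 erythroid (1008 and 545) and 4 NK cell genes (3885 and 3954) were not higher, or by little, on the memory Furin cKO array. Their part in the genotype differences of the replication genes was not tested.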

How the data were processed

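Total RNA of 6 samples, 1 per group, was hybridised to Affymetrix arrays. The deposited intensities are linear MAS5 signals, per the submitters' processing notes, with no version or settings named there. In each deposited column the mean after trimming 2% at each end was 500. This scaling sets a common mean brightness and does not correct dim signals.

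Of 45101 probe sets, 64 were controls, 34945 carried 1 gene symbol in the platform annotation, 932 several and 9160 none; the last 2 kinds were not named. The brightest probe set by mean log2 signal stood for its gene. Signals below the pooled 40th percentile (47.6) were raised to it. Log2 values of the 15721 genes above the floor on at least 1 array were fitted with limma 3.58.1 (R 4.3.3), with population and genotype as terms and moderated variances; p-values were adjusted by Benjamini-Hochberg over all 15721 genes (threshold 0.05). The code was tested on simulated data. Genotype within a population compares 1 array with 1 array: a log2 fold with no test, left out where both signals were below the floor. The number of arrays limits the precision. Whether 1 animal gave more than 1 population is not in the labels.

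The genes and lists were chosen with earlier results of these data known, and counts and medians over them are descriptions. Values on all arrays are given for the 2 genes with the widest range in each role group, genes at least 2-fold different in 2 or more genotype pairs, and those that depart from the others; from other lists, up to 3 genes with the largest differences were eligible. Alternatives were quantile, cyclic loess and median scaling, floors at the 20th and 60th percentile, a pseudocount of 16, the mean of all probe sets, no genotype term, leaving out each array and, added after seeing the data, no _x_at or _s_at probe set where another exists. Promoters and motif matches came from RefSeq (GRCm38.p6).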

Additional observations from a re-analysis of the deposited data

Results flagged for a closer look

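Each item here is a genotype difference (log2, Furin cKO over control, 1 array each) that had opposite signs in a pair of populations, with a gap of at least 0.5 for a list's median or 1.5 for a gene. No difference between populations was tested. The median of the 46 genes was -0.05 in activated and 0.64 in memory cells. Nucleotide supply stood at -0.11 in activated, 1.16 in memory and 0.44 in regulatory cells, origin licensing at -0.02, 0.68 and 0.69, and the genes behind the fork at -0.14, 0.62 and 0.37. For the helicase the activated and memory medians were -0.10 and 0.53, for the polymerases and primase -0.02 and 0.73, and for the clamp and loader -0.02 and 0.52. Cdc6 stood at -0.08 in activated, 1.77 in memory and 2.02 in regulatory cells, Gins1 at -0.28 in activated and 1.35 in memory cells, and Uhrf1 at -0.14 and 1.41. The activated values are close to 0, so the opposite sign adds little to the difference in size.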

How the results depend on the processing

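With 1 array per group, precision is limited by the number of arrays. No paired analysis was possible because each group has 1 array, so replicate numbers pair nothing; the genotype term already matches control with control arrays, and the fit without it gave 37 and 42 calls. The 37 calls over memory cells stayed between 34 and 40, and the 44 over regulatory cells between 38 and 44, under all scalings, floors, probe set rules and the fit without a genotype term; leaving out 1 array gave 5 to 28 and 0 to 39. Regulatory against memory gave 1 call among the 46, downward, under a 60th percentile floor and with no genotype term. Of all genes, 186 (1.74%) rose and 267 fell under that floor, and 252 (1.6%) rose and 368 fell with no genotype term. The regulatory minus memory median of -0.34 became -0.67 without the memory control and 0.00 without the memory Furin cKO array. Leaving out an array leaves that population with 1, assumed to vary like the others, and 1 residual degree of freedom. Quantile and loess scaling moved the median of all genes to 0.00 in both activated contrasts, and the share of higher among all calls from 39.2% to 51.6% and 52.5% over memory cells and from 40.6% to 55.3% and 56.5% over regulatory cells; relative to all genes the set's median was 2.07 (1.55 to 2.34) and 2.34 (1.74 to 2.63). With the mean of all probe sets the 14 genes at least 2-fold higher in memory cells became 8 and the 6 in regulatory cells 3; the latter also became 3 with the 60th percentile floor. The genotype medians stayed at 0.55 to 0.73 (memory), 0.13 to 0.20 (regulatory) and -0.06 to -0.03 (activated). The causes were not tested.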

Other observations

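The 46 genes have 54 further probe sets, in 35 genes, of which 49 were above the floor on some array. Of these, 38 had the sign of the chosen probe set for activated against memory cells and 34 for activated against regulatory cells. On the Furin cKO array 34 of 44 read higher in memory, 37 of 46 in regulatory and 13 of 42 in activated cells. Mcm2, a subunit of the helicase ring, was the sharpest disagreement between bright probe sets: the chosen one read 1110 and 1602 in memory and 869 and 1068 in regulatory cells, control first, and the other read 1506 and 620 in memory and 1180 and 499 in regulatory cells. Both read alike in activated cells, 3581 and 4005 against 3982 and 3861. The direction of Mcm2 between genotypes therefore depends on the probe set. For Fen1, the second probe set was higher on the Furin cKO array in regulatory cells (700 and 874), where the chosen one was lower (816 and 648).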
